A study of Mus musculus with 4 samples.

Results

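The cells described here were the macrophages of the S100GFP-tg muscle data set, 376 of 18153 cells over 4 libraries. They were selected on measured values. Barcodes counted as cells above 200 detected genes and below 10% mitochondrial UMIs (unique molecular identifiers, each counting 1 captured RNA molecule). A cell was called a macrophage when at least 4 of the 8 genes C1qa, C1qb, C1qc, Mrc1, Csf1r, Adgre1, Tyrobp and Fcer1g were detected and the summed C1qa, C1qb and C1qc UMIs came to at least 0.1% of its UMIs. The rule gave 106 of 4767 cells in WT and 176 of 6291 in Sod1KO for GFP+, and 18 of 1665 in WT and 76 of 5430 in Sod1KO for GFP-.

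The tissue was the tibialis anterior and gastrocnemius of male mice at 2 months of age. All groups carried the S100GFP-tg reporter, in which the S100B promoter drives GFP to mark Schwann cells. One pool of 4 mice was wild type for Sod1 (WT) and one pool of 4 was Sod1-/- (Sod1KO), lacking the cytosolic superoxide dismutase, a mouse whose muscles lose and regain nerve contacts. Each pool was dissociated with enzymes, sorted into live GFP+ and live GFP- cells and sequenced as 1 library per sort with a 3' droplet kit. With 1 library per group no test between genotypes or sorts was made, and every interval below covers counting error only, not the spread between mice. Intervals on summed UMIs and their ratios also leave out the spread between cells, so they are too narrow where few cells hold most UMIs. Within a genotype, the GFP+ and GFP- libraries came from the same mice, and a comparison between sorts is therefore a comparison of gates, not of treatments. The question set by this design is how resident cells of muscle and its nerves differ when innervation is unstable.

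Macrophages are the resident phagocytes of muscle and peripheral nerve. They clear debris, secrete C1q, the recognition subunit of the classical complement pathway, and depend on signals through the receptor Csf1r. In many tissues, cells along vessels and connective sheaths carry Lyve1, a hyaluronan receptor, Folr2, a folate receptor, and Timd4, a receptor for phosphatidylserine on dying cells. Cells that arrived from blood monocytes more often carry the chemokine receptor Ccr2 and genes of major histocompatibility complex (MHC) class II, which present peptides to T cells. Retnla encodes a secreted protein of the resistin family that is typical of macrophages exposed to type 2 cytokines.

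The promoters of 2 genes of the genotype comparison are shown here, since both were lower in Sod1KO macrophages of both sorts. Each run covers 250 bases before to 50 after the annotated start in RefSeq on GRCm38.p6, read 5′ to 3′ along the gene's strand. Capitals mark matches on either strand to PU.1 (GAGGAA), C/EBP (TTNNGCAA), STAT6 (TTC and GAA with 4 bases between) or AP-1 (TGANTCA), which are letters bound by transcription factors used in macrophages.
Retnla, chr16:48842359-48842658, plus strand: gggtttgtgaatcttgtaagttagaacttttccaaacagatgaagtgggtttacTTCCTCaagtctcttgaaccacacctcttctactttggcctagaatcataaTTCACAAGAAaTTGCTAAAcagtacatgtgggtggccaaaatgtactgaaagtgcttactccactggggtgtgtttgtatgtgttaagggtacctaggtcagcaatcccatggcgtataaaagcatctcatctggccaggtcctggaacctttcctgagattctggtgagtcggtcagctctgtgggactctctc
Cd209g, chr8:4134486-4134785, plus strand: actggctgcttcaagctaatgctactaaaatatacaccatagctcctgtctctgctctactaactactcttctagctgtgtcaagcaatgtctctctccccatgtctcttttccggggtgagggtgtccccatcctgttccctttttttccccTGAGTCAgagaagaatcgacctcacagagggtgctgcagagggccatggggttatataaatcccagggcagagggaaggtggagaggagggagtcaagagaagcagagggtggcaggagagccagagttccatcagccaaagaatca
The Retnla promoter held a match to the STAT6, C/EBP and PU.1 letters, the first 2 lying close together, and that of Cd209g, a lectin receptor of the DC-SIGN family, held a match to AP-1 only. Among 27025 mouse promoters of the same length, 6.99% held the STAT6 letters, 10.8% C/EBP, 28.3% PU.1 and 7.93% AP-1. Of the 10 genes named below as lower in Sod1KO, 5 had a promoter in the table used, and 1 of those 5 held STAT6, 2 C/EBP, 2 PU.1 and 1 AP-1. A match is a run of letters and not a measured binding site.

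The label was checked on genes outside the rule. In macrophages the 12 macrophage genes that the rule did not use, such as Lyz2, Ctss and Cd68, summed to 14561 CPM (UMI counts scaled to a common depth) in WT and 11653 in Sod1KO for GFP+, and 12418 in WT and 8415 in Sod1KO for GFP-. Values given without names below follow this order of libraries. In the remaining cells of the same libraries they summed to 751, 292, 109 and 135 CPM. The platelet factor chemokine Pf4 was at 2229 to 3443 CPM in macrophages and at 2.76 to 7.98 CPM elsewhere. Genes that define T and NK cells and mast cells had at most 8 and 5 UMIs per library. Of the neutrophil list S100a9 and Retnlg were at 0 in all 4 libraries, and the list summed to at most 83 UMIs. The B cell list summed to 196 to 308 CPM, and the part of this in the results was not tested. The microglial factor Sall1 was at 0 UMIs in all 4 libraries. The values that the rule used are given as a description: 328 of the 376 cells had all 8 genes and 4 had the minimum of 4, while the C1q share ran from 0.1005% to 2.24% with a median of 0.836%. The 5 cells just above the limit had 0.1005% to 0.135%. Of 70 cells with enough genes but too little C1q, the highest had 0.0821%.

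Macrophages had 14224 to 18500 UMIs per cell at the median, and the 18 cells of WT GFP- gave 383631 UMIs against 1206369 to 2784218 in the other 3 libraries. Ratios that involve WT GFP- are the least precise. Between pairs of libraries 0 to 10 cell barcodes of all cells were shared and 0 barcodes of macrophages. The RNA of the Sod1 gene did not separate the genotypes in these cells, with 100.3 CPM in WT and 97.3 in Sod1KO for GFP+, and 146 in WT and 96.2 in Sod1KO for GFP-. A 3' tag can lie outside a deleted part, and the deleted part was not given in the sources used here, so these values do not check the genotype. Sod1KO therefore means the libraries labelled so. The feature list held no GFP gene.

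The share of macrophages among cells was 2.22% in WT GFP+ (95% exact interval 1.82 to 2.68) and 2.80% in Sod1KO GFP+ (2.40 to 3.24). In GFP- it was 1.08% for WT (0.642 to 1.70) and 1.40% for Sod1KO (1.10 to 1.75). Sod1KO exceeded WT by 0.574 percentage points in GFP+ (interval -0.0213 to 1.15) and by 0.319 points in GFP- (-0.363 to 0.846), so that both intervals held 0. The shares depend on the gates, since the cells that make up the rest of each library differ.

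Some macrophages also held transcripts of other lineages, which bears on every comparison below. In 42 of the 376 cells, genes of another lineage (Schwann, endothelial, mural, fibroblast, tenocyte, erythroid and others) reached 0.5% or more of UMIs. These were 7 of 106 cells (6.60%) in WT and 23 of 176 (13.1%) in Sod1KO for GFP+, and 2 of 18 (11.1%) in WT and 10 of 76 (13.2%) in Sod1KO for GFP-. Fibroblast genes reached the limit in 23 cells, mural genes in 15, tenocyte genes in 9, genes of myelinating Schwann cells in 6 and endothelial genes in 3. The 42 cells had a median of 30611 UMIs against 14622 in the other 334, and 22 of the 28 macrophages scored as doublets were among them. Results below are given with these cells and, for some, also without them. A result given only with them may differ without them.

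**Figure D1:**
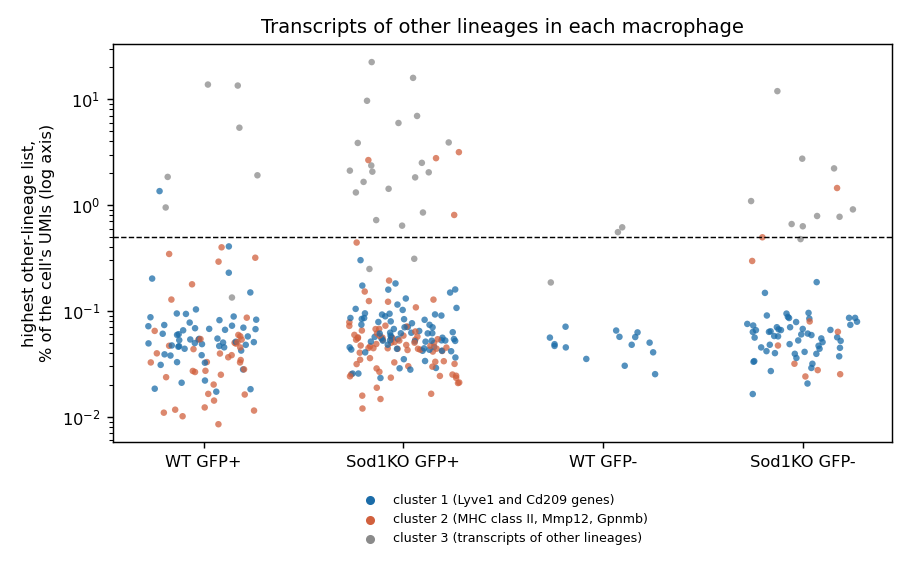
Share of each macrophage's UMIs in the highest of the other-lineage gene lists (log axis, 1 point per cell), by library, coloured by cluster, with a dashed line at 0.5%. Of 376 cells, 42 lie at or above the line, and all but 6 of these belong to cluster 3.

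Clustering of the 376 cells gave 3 groups. So that genotype and sort could be compared across them, the 2211 genes that were past 2-fold in any of the 4 comparisons were left out of the clustering. Cluster 1 held 202 cells led by Lyve1, the lectin receptor genes Cd209d, Cd209f and Clec10a, the ficolin gene Fcna and the complement gene C4b. Cluster 2 held 133 cells led by the metalloelastase gene Mmp12, Gpnmb, the cytokine genes Il1a and Areg, and the histone and replication genes Hist1h1b and Pclaf. Leading genes were ranked on counts summed per cluster and can rest on few cells. Gpnmb had a UMI in 23 of all 376 cells, and Mmp12 in 9 cells of WT GFP+ and 14 of Sod1KO GFP+. Cluster 3 held 41 cells with collagen and cartilage genes in the lead, and haemoglobin genes through 1 cell, which had 4144 of the 4169 Hbb-bs UMIs in Sod1KO GFP+. It had a median of 30419 UMIs and held 36 of the 42 cells with other-lineage transcripts. It is called the mixed cluster.

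The Lyve1 and Cd209 cluster carried 9 of 10 resident macrophage genes above the limits of 20 CPM and 2 times the mean of the other clusters. It also carried all 7 genes of a list known from macrophages of the outer nerve sheath (Retnla, Clec10a, Mgl2, Cd209d, Cd209f, Fxyd2 and Ccl8). In it Folr2 was at 1252 CPM against 199 in cluster 2, and the coagulation factor gene F13a1 at 3323 against 624. Cluster 2 carried 6 of 8 MHC class II genes, 5 of 8 lipid-laden macrophage genes and 7 of 8 cell cycle genes. In it Cd74, the invariant chain of MHC class II, was at 8936 CPM against 4907 in cluster 1, Cx3cr1, the fractalkine receptor, at 303 against 51.3, and Top2a, a topoisomerase of dividing cells, at 154 against 1.39. These values describe the clusters and are no test of them. Of 133 cells with a Timd4 UMI, 116 had a Lyve1 UMI and 12 a Ccr2 UMI. All but 3 of the Ccr2 cells came from the GFP+ libraries, where 5 of 30 Timd4 cells in WT and 6 of 40 in Sod1KO also had a Ccr2 UMI. Of all 89 cells with a Ccr2 UMI, 29 (32.6%) had a Lyve1 UMI, with 43.2% in WT GFP+ and 26.5% in Sod1KO GFP+.

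The sorts differed in their mixture of clusters. In the GFP+ sort cluster 1 held 56 of 106 WT macrophages (52.8%) and 75 of 176 Sod1KO macrophages (42.6%). In the GFP- sort it held 15 of 18 (83.3%) and 56 of 76 (73.7%). Cluster 2 held 43 WT cells (40.6%) and 80 Sod1KO cells (45.5%) in GFP+, but 0 WT cells and 10 Sod1KO cells (13.2%) in GFP-. A count of 0 among 18 cells allows a share of up to 18.5% (95% exact upper bound). The share of cluster 2 was higher in GFP+ by 40.6 percentage points in WT (interval 20.9 to 50.1) and by 32.3 points in Sod1KO (20.5 to 41.7). Its share in Sod1KO exceeded that in WT by 4.89 points for GFP+ (-7.03 to 16.4) and 13.2 points for GFP- (-5.38 to 22.6), both with 0 inside.

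**Figure D2:**
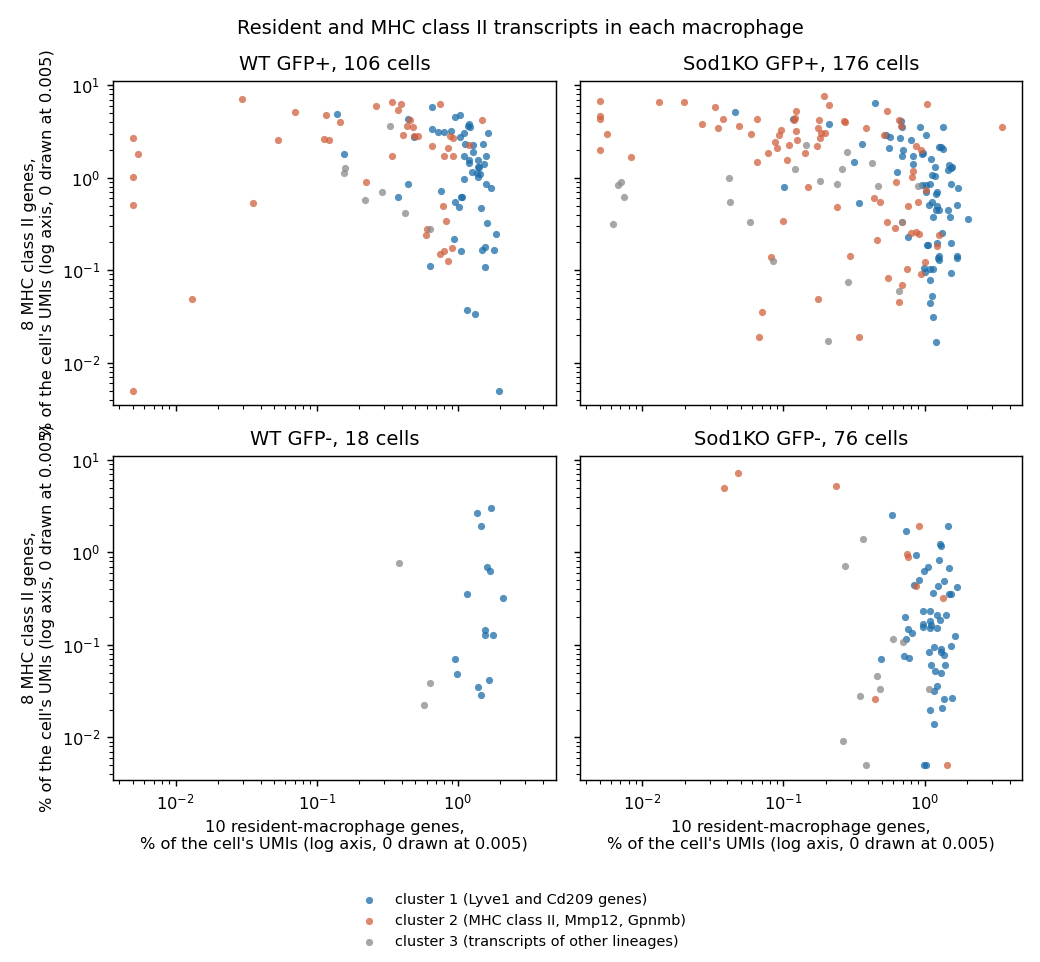
Each macrophage's share of UMIs in 10 resident macrophage genes (x axis) and 8 MHC class II genes (y axis), both in percent on log axes with 0 drawn at 0.005, by library and coloured by cluster. Cluster 2 (orange) takes up 43 of 106 WT and 80 of 176 Sod1KO cells of the GFP+ sort, against 0 of 18 and 10 of 76 in the GFP- libraries.

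For single genes a comparison was made where at least 10 UMIs were expected in each library at the pooled rate, and a gene counted as different when past 2-fold. Of 10640 genes in GFP+ macrophages, 6.12% were higher and 2.1% lower in Sod1KO than in WT. Of 5595 genes in GFP- macrophages, 6.52% were higher and 2.63% lower. In both sorts alike, 71 of 5575 genes (1.27%) were higher and 7 (0.126%) lower. Without the 42 cells with other-lineage transcripts, the shares were 2.65% higher and 3.07% lower in GFP+, 4.44% higher and 3.21% lower in GFP-, and in both alike 14 of 4620 genes (0.303%) higher and 6 (0.13%) lower. The excess of higher genes thus moved with those cells. It also moved with scaling: of genes past 2-fold in GFP-, 71.3% were higher with total UMIs and 81.9% with totals that left out mitochondrial, ribosomal and Gm42418 UMIs, where the median of all genes went from -0.10 to 0.017. Ranked again without them, a step chosen after seeing the data, the 10 leading lower genes shared 8 with the 10 named below and the 10 leading higher genes shared 1.

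**Figure D3:**
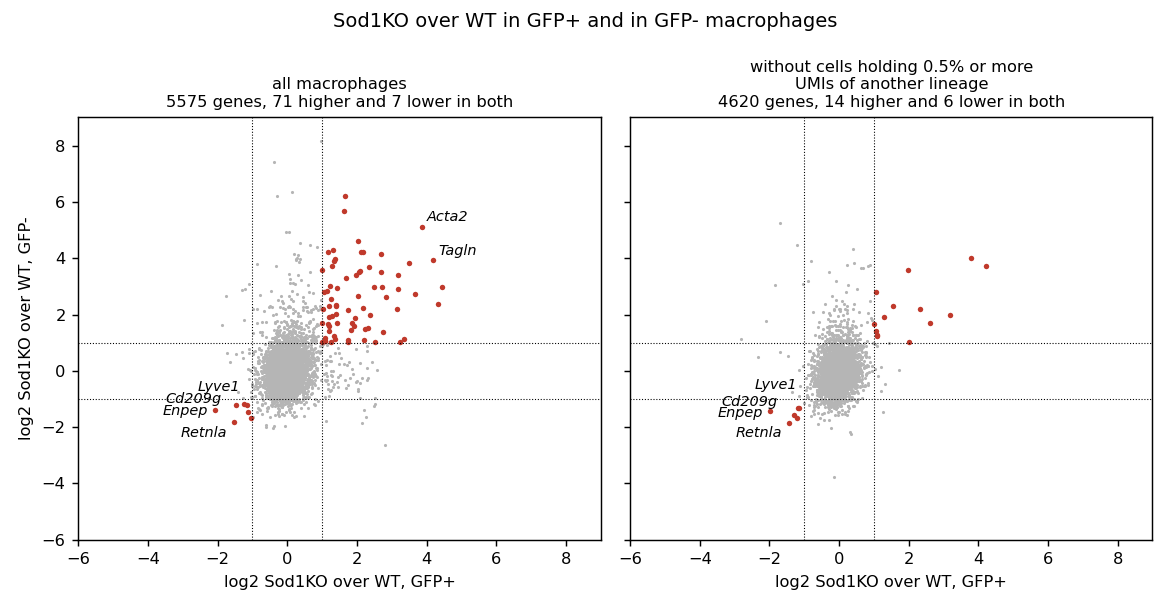
Log2 ratio of CPM, Sod1KO over WT, in GFP+ (x axis) and GFP- macrophages (y axis), 1 point per gene, for all macrophages (left) and without the 42 cells with other-lineage transcripts (right), with dotted lines at 2-fold and red points past 2-fold the same way in both. The upper right group with Acta2 and Tagln thins from 71 to 14 genes, while Retnla, Enpep and Cd209g stay past 2-fold at the lower left and Lyve1 moves to -0.99 in GFP+.

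Retnla ranked first by the rule for genes lower in Sod1KO in both sorts. It stood at 7971 CPM (Poisson interval 7849 to 8095) in WT and 2779 (2718 to 2842) in Sod1KO for GFP+, and 5581 (5347 to 5822) in WT and 1574 (1504 to 1647) in Sod1KO for GFP-. Both Sod1KO libraries were thus below both WT libraries. The log2 ratio of Sod1KO over WT was -1.52 in GFP+ (interval -1.56 to -1.48) and -1.83 in GFP- (-1.92 to -1.74). A Retnla UMI was found in 56 of 106, 71 of 176, 12 of 18 and 28 of 76 cells in the same order. After each cell was thinned to 1000 UMIs, 44.7%, 27.8%, 33.3% and 28.9% of cells had one, against 0% to 0.705% of endothelial cells, so the order of the GFP- libraries was not resolved by this measure. In WT GFP- a single cell held 1060 of the 2141 Retnla UMIs. With the cell of most Retnla UMIs left out of each library, the log2 ratio in GFP- was -1.30, and as a mean of per-cell CPM it was -1.19.

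The lower Retnla level was seen inside the clusters as well. In cluster 1 it was at 11315 CPM in WT and 4907 in Sod1KO for GFP+, and 7015 in WT and 2251 in Sod1KO for GFP-, with log2 ratios of -1.21 and -1.64. In cluster 2 it was at 5709 CPM in WT GFP+ and 2004 in Sod1KO GFP+, a log2 ratio of -1.51. Under all 11 alternative settings tried, the ratio stayed past 2-fold in both sorts. In the cells that were not macrophages, Retnla UMIs were also fewer in Sod1KO, at 94.1 and 52.9 CPM in GFP+ and at 1.41 and 0.255 CPM in GFP-.

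Lyve1 followed the same order of genotypes with a large difference between sorts. It was at 390 CPM in WT and 176 in Sod1KO for GFP+, and 1202 in WT and 516 in Sod1KO for GFP-. The log2 ratios of Sod1KO over WT were -1.14 (-1.31 to -0.98) and -1.22 (-1.40 to -1.04), and the ratios of GFP+ over GFP- were -1.62 in WT and -1.55 in Sod1KO. Within cluster 1 the genotype ratios were smaller, -0.74 and -0.93, so that Lyve1 was not past 2-fold there, and without the cells with other-lineage transcripts the GFP+ ratio was -0.99. Thinned to 1000 UMIs, 30.1% and 12.5% of GFP+ macrophages and 61.1% and 30.3% of GFP- macrophages had a Lyve1 UMI, WT before Sod1KO, against 0.524% to 1.75% of endothelial cells, which can express the gene.

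The lectin gene Cd209g was at 299 CPM in WT and 126 in Sod1KO for GFP+, and 250.2 in WT and 109 in Sod1KO for GFP-. The log2 ratios were -1.25 (-1.45 to -1.06) and -1.19 (-1.58 to -0.80). They fell short of 2-fold in GFP+ within cluster 1 (-0.79) and in GFP- as a mean of per-cell CPM (-0.61). Cd209 genes are near copies of each other, and reads could be shared among them in counting.

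Cfb and C4b, of the complement system, were among the genes named as lower. Cfb, factor B of the alternative pathway, was at 48.2 CPM in WT and 23.3 in Sod1KO for GFP+, and 130.3 in WT and 40.6 in Sod1KO for GFP-, with log2 ratios of -1.04 (-1.52 to -0.58) and -1.68 (-2.28 to -1.08). The GFP+ ratio of Cfb stayed past 2-fold in 7 of 11 alternatives and came to -0.77 as a mean of per-cell CPM. C4b, the C4 component of the classical pathway, was at 282, 116, 631 and 325 CPM in that order. Its ratios were -1.28 (-1.48 to -1.08) and -0.96 (-1.19 to -0.72), the second short of 2-fold. On the complement list, which holds C4b and not Cfb, 1 of 12 genes compared in GFP+ was past 2-fold lower and 1 higher, with a median log2 ratio of -0.27 beside 0.0019 for all genes, and in GFP- 1 of 11 lower and 1 higher, with a median of -0.25 beside -0.10. Over all genes, 6.12% were higher and 2.1% lower in GFP+, and 6.52% higher and 2.63% lower in GFP-. The C1q genes, which chose the cells, lay between 2120 CPM (C1qc in Sod1KO GFP+) and 3334 CPM (C1qa in WT GFP-).

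The other genes named as lower in both sorts were of several kinds. Ccr1, a chemokine receptor, was at 171 CPM in WT and 86.6 in Sod1KO for GFP+, and 292 in WT and 94.5 in Sod1KO for GFP- (log2 -0.98 and -1.63). Enpep, an aminopeptidase that cleaves angiotensin, was at 36.4, 8.62, 198 and 76.3 CPM (-2.08 and -1.38), and other cells of the GFP- libraries held it at 61.6 and 42.6 CPM. Gvin1, a large interferon-inducible GTPase, was at 29.0, 10.4, 75.6 and 32.3 CPM (-1.48 and -1.23), and the kinase gene Stk17b at 204.5, 101, 295 and 153 CPM (-1.02 and -0.94). Gm8797, a gene model without a proper name, differed in the same way in cells that were not macrophages, at 359, 188, 411 and 194 CPM, beside 336, 154, 417 and 150.0 CPM in macrophages. In both, the Sod1KO libraries were below the WT libraries.

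**Figure D4:**
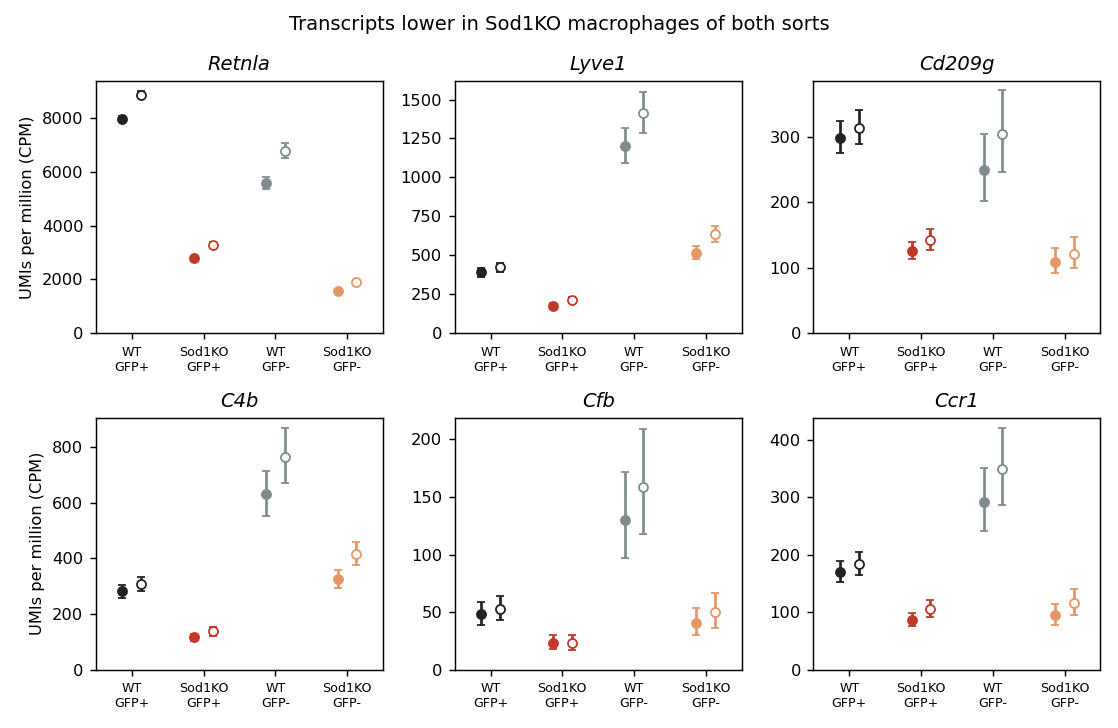
CPM of 6 genes in macrophages by library, with 95% Poisson intervals for counting error; filled points are all macrophages and open points those without the 42 cells with other-lineage transcripts. Both Sod1KO libraries lie below the WT library of the same sort for each gene, as for Retnla at 2779 against 7971 and 1574 against 5581 CPM.

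On the list of outer nerve sheath genes, Retnla was the 1 gene of 7 past 2-fold lower in Sod1KO GFP+, with 0 higher and a median log2 ratio of -0.73. In GFP- 4 of 7 were lower and 0 higher, with a median of -1.23. Its summed level was 10560 CPM in WT and 4628 in Sod1KO for GFP+, and 10526 in WT and 3507 in Sod1KO for GFP-. Retnla made up most of the GFP+ sums, at 7971 and 2779 CPM. The background share of lower genes was the 2.1% and 2.63% given above. Among its members, the chemokine gene Ccl8 differed between the sorts: it was at 752 and 714 CPM in GFP+ macrophages, WT before Sod1KO, and at 2156 and 550 CPM in GFP-, with log2 ratios of -0.07 (-0.17 to 0.02) and -1.97 (-2.12 to -1.82). The difference between these ratios was not tested. Clec10a and Mgl2, lectins that bind galactose-type sugars, were lower by less than 2-fold in both sorts (log2 -0.74 and -0.80 for Clec10a, -0.52 and -0.68 for Mgl2).

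On the resident macrophage list, Lyve1 was the 1 gene of 9 past 2-fold lower in GFP+, with 0 higher and a median of -0.35. In GFP- 2 of 10 were lower and 0 higher, Lyve1 and the complement receptor gene Vsig4, with a median of -0.49. The share of lower genes over all genes was 2.1% in GFP+ and 2.63% in GFP-. Cd163, the haemoglobin scavenger receptor, was at 721 CPM in WT and 408 in Sod1KO for GFP+, and 1105 in WT and 647 in Sod1KO for GFP-. Folr2 was at 653, 513, 1322 and 1023 CPM and Timd4 at 62.9, 40.2, 128 and 138 CPM in that order, so Timd4 in GFP- did not show the genotype order.

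The 10 genes named as higher in Sod1KO in both sorts included contractile genes of mural cells. They were Tagln, Acta2, Myh11, Mustn1, Tpm2, Pde3a, Akap6, Smoc2, Ccdc85a and the gene model Gm11290, of which the first 3 are contractile genes of smooth muscle. Gm11290 had 0 UMIs in WT and 89 in Sod1KO for GFP+, and 2 in WT and 50 in Sod1KO for GFP-. Without the cells with other-lineage transcripts it was at 48 UMIs in Sod1KO GFP+, and at 1 in WT GFP- and 46 in Sod1KO GFP-, so it stayed higher in both sorts. Acta2, smooth muscle actin, was at 38.8 CPM in WT and 565 in Sod1KO for GFP+, and 10.4 in WT and 362 in Sod1KO for GFP-. Of its 1572 UMIs in Sod1KO GFP+ 95.7% lay in the cells with other-lineage transcripts, and of its 437 UMIs in Sod1KO GFP- 94.1%, of which 377 in a single cell. Without those cells Acta2 was at 37.9 CPM in WT and 32.0 in Sod1KO for GFP+, and 12.7 in WT and 28.7 in Sod1KO for GFP-, so that the GFP+ ratio was -0.25. Of the Gm11290 UMIs in Sod1KO GFP+ 46.1% lay in the cells with other-lineage transcripts. For the other genes named as higher, this share ran from 74.1% (Akap6) to 100% (Pde3a and Ccdc85a). Other cells of the libraries held Acta2 at 1499 to 4086 CPM. Of the mural list 5 of 8 genes were higher and 0 lower in Sod1KO GFP+ macrophages, and of the myelinating Schwann list 7 of 8, with a median log2 ratio of 1.69 beside -0.78 for the same genes in other cells. The share of higher genes over all genes in GFP+ was 6.12%.

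Of 13 inflammatory genes compared in GFP+, 2 were past 2-fold higher and 0 lower, and in GFP- 1 of 7 higher and 0 lower. For this and the next lists, the shares over all genes were 6.12% higher and 2.1% lower in GFP+. In GFP- they were 6.52% and 2.63%. Il1b, the cytokine interleukin 1 beta, was at 137 CPM in WT GFP+ and 308 in Sod1KO GFP+ (log2 1.17, 0.98 to 1.37). One cell of WT GFP+ held 104 of 278 Il1b UMIs. Il1a was at 27.0 and 57.5 CPM in these libraries (1.09, 0.64 to 1.56). Of 14 interferon-response genes in GFP+, 3 were higher and 0 lower with a median of 0.42, and of 11 in GFP-, 1 was higher and 1 lower with a median of -0.26. Of 8 cell cycle genes in GFP+, 3 were past 2-fold higher and 0 lower, and their summed level was 245 CPM in WT and 374 in Sod1KO for GFP+, and 15.6 in WT and 80.4 in Sod1KO for GFP-. In GFP- 0 of the 8 had enough UMIs to be compared, and the WT sum rested on 6 UMIs. Cells that were not macrophages held these genes at 42.9, 109, 82.2 and 147 CPM, in the order of libraries given above.

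Of the 13 respiratory chain genes of the mitochondrial genome, 11 were above 0 on the log2 scale of Sod1KO over WT in GFP+ and 9 in GFP-, with 0 past 2-fold and medians of 0.34 and 0.22. They summed to 26699 CPM in WT and 35286 in Sod1KO for GFP+, and 24073 in WT and 33600.0 in Sod1KO for GFP-. In the other cells of these libraries the sums were 37954, 37409, 30129.9 and 37827 CPM. Of 17 antioxidant genes compared in GFP+, Sod1 included, 1 was higher and 1 lower, and of 12 in GFP-, 1 was higher and 0 lower. Of the lysosomal genes, 0 of 20 compared in GFP+ and 0 of 19 in GFP- were past 2-fold. Beside these counts, 6.12% of all genes were higher and 2.1% lower in GFP+, and 6.52% higher and 2.63% lower in GFP-.

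Between sorts, the background was as follows. Of 5390 genes in WT macrophages, 6.73% were higher and 4.4% lower in GFP+ than in GFP-, and of 9354 in Sod1KO macrophages 6.31% were higher and 5.32% lower. In both genotypes alike, 143 of 5385 (2.66%) were higher and 81 (1.5%) lower. Without the cells with other-lineage transcripts the shares were 6.36% and 4.1% in WT, 5.5% and 3.74% in Sod1KO, and 2.62% and 0.699% in both alike.

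MHC class II genes were higher in GFP+. Of 8 genes, 7 were past 2-fold higher in GFP+ in WT and 7 in Sod1KO, with 0 lower (5 and 7 without the cells with other-lineage transcripts) and median log2 ratios of 1.37 and 1.69 beside -0.084 and -0.045 for all genes. H2-Ab1, a beta chain, was at 2644 CPM in WT and 2241 in Sod1KO for GFP+, and 928 in WT and 675 in Sod1KO for GFP-. Both GFP+ libraries were thus above both GFP- libraries, and the same held for Cd74 at 7835, 6344, 3668 and 2011 CPM. The eighth gene, the costimulator Cd86, was level, at 710 to 808 CPM. Part of the difference was present inside cluster 1, where H2-Ab1 was at 2466 and 1561 CPM in GFP+, WT before Sod1KO, and at 1072 and 298 CPM in GFP-. The last of these gave a genotype ratio of -1.85 in cluster 1 of the GFP- libraries, where WT had 15 cells.

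Ccr2 and lipid-laden macrophage genes were also higher in GFP+. Of the 8 genes of the monocyte list, which holds Ccr2, 2 could be compared in WT and 3 in Sod1KO, and each of them was past 2-fold higher in GFP+. Ccr2 had 469 UMIs in WT and 491 in Sod1KO for GFP+, and 0 in WT and 31 in Sod1KO for GFP-, the last from 3 cells. GFP+ was higher by a log2 ratio of 4.88 in WT, an estimate with 3 UMIs set in place of 0, and by 2.78 (2.25 to 3.35) in Sod1KO. In cluster 1 alone, Ccr2 was at 229 and 84.5 CPM in the GFP+ libraries and at 0 UMIs in both GFP- libraries. Of the 8 lipid-laden genes, 7 were higher in WT and 6 in Sod1KO, with 0 lower and medians of 2.14 and 2.26. For both lists, the share of higher genes over all genes was 6.73% in WT and 6.31% in Sod1KO. Lgals3, galectin 3, was at 970 CPM in WT and 1139 in Sod1KO for GFP+, and 156 in WT and 225 in Sod1KO for GFP-, and Ctsd, a lysosomal protease, at 1308, 1172, 487 and 479 CPM.

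Several of the named genes rested on few cells. Spp1 (osteopontin, a secreted matrix protein that binds Cd44 and integrins) had 889 UMIs in WT GFP+ from 6 cells, 573 of them in a single cell. Sod1KO GFP+ had 419 UMIs from 36 cells, and the GFP- libraries had 0 (WT) and 4 (Sod1KO). In CPM this was 437, 150.5, 0 and 3.32, beside 60.0, 89.2, 4.04 and 5.02 CPM in other cells of the libraries. Thinned to 1000 UMIs, 3.88% and 5.68% of GFP+ macrophages had a Spp1 UMI, WT before Sod1KO, beside 0.529% and 0.699% of endothelial cells. The log2 ratio of Sod1KO over WT in GFP+ was -1.54 and became -0.47 without the cell of most UMIs in each library.

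Gpnmb, a glycoprotein of lipid-loaded macrophages, had 349 UMIs from 9 cells in WT and 144 from 13 cells in Sod1KO for GFP+, and 0 in WT and 4 from 1 cell in Sod1KO for GFP-. Il1b had 278 and 858 UMIs in the GFP+ libraries from 19 and 49 cells, and 0 and 1 in GFP-. Mmp12, the macrophage elastase, had 221, 129, 0 and 1 UMIs. The lysozyme gene Lyz1 had 1092, 735, 1 and 21, with log2 ratios of 7.69 (5.20 to 12.99) in WT and 3.92 (3.30 to 4.62) in Sod1KO, and its near copy Lyz2 could take part of its reads. All 4 were thus present in both GFP+ libraries, and Gpnmb, Il1b and Mmp12 were near the floor of 3 UMIs in GFP- macrophages. Of the 21 Lyz1 UMIs in Sod1KO GFP-, 19 lay in a single cell. Rgs1, a regulator of G protein signals, and Bcl2a1b, 1 of several near-identical survival genes, showed the same order (113, 140.4, 0 and 9.95 CPM for Rgs1, and 253, 327, 7.82 and 24.9 CPM for Bcl2a1b).

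**Figure D5:**
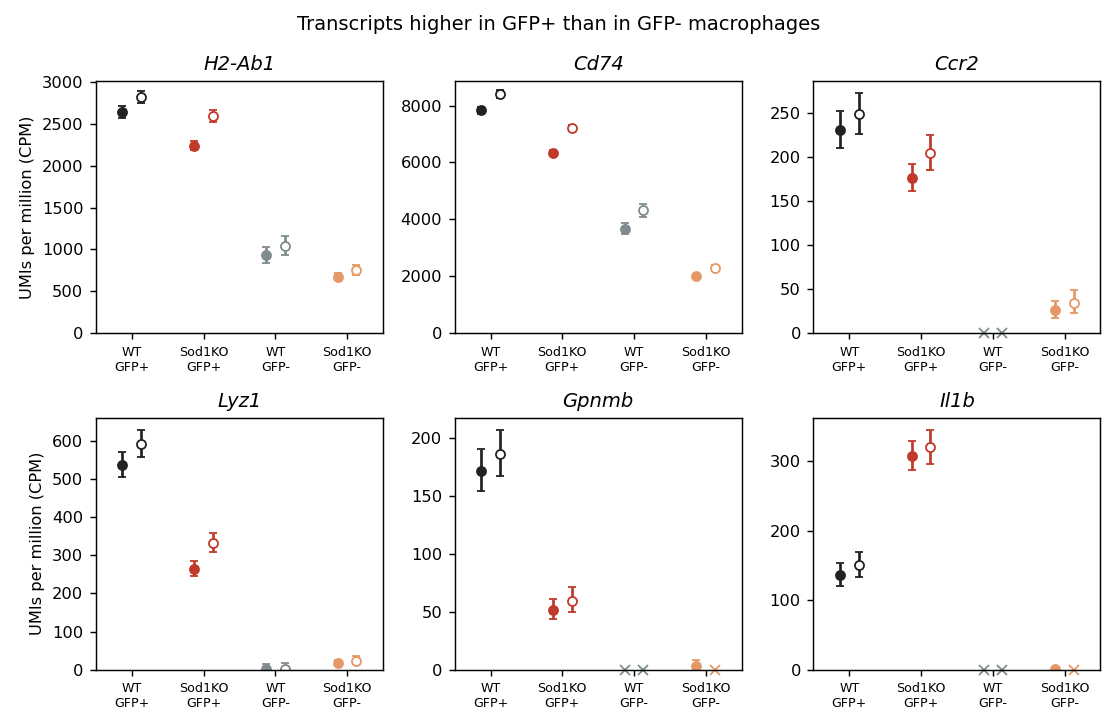
CPM of 6 genes in macrophages by library, with 95% Poisson intervals for counting error; filled points are all macrophages, open points those without the 42 cells with other-lineage transcripts, and a cross marks 0 UMIs. Both GFP+ libraries lie above both GFP- libraries for each gene, with Gpnmb and Il1b near 0 in GFP-. Ccr2 and Lyz1 are near 0 in WT GFP- and come from few cells in Sod1KO GFP-.

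The remaining 3 genes named as higher in GFP+, Nkain2, Csmd1 and Negr1, were at higher levels outside macrophages. Csmd1 had 278 UMIs in WT GFP+ macrophages, 274 of them in a single cell, and was at 591 and 729 CPM in the other cells of the GFP+ libraries against 11.2 and 24.6 CPM in those of GFP-. Nkain2 had 286 UMIs in WT GFP+, 265 in a single cell, and Negr1 was at 133 and 159 CPM in other GFP+ cells against 38.3 and 40.9 CPM in macrophages. The part of free or mixed RNA in these values was not tested.

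In the other direction, the resident list had 4 of 9 compared genes past 2-fold lower in GFP+ in WT and 3 of 10 in Sod1KO, with 0 higher and medians of -0.91 and -0.89. The share of lower genes over all genes was 4.4% in WT and 5.32% in Sod1KO. Most genes named as lower in GFP+ were endothelial or mural, among them Flt1, Cdh5, Egfl7, Ptprb, Ly6c1, Aqp1, Kcnj8 and Rgs5. Their levels in other cells of the GFP- libraries were high, as for Flt1 at 1294 and 1010 CPM beside 175 and 274 CPM in GFP- macrophages. Of the 8 genes on the endothelial list, 8 were compared in Sod1KO and 8 were lower. In Sod1KO, Flt1 and Ptprb stayed past 2-fold lower in 10 of 10 alternatives, and Cdh5 and Egfl7 in 9 of 10. In WT 5 genes of the list were compared and 5 were lower. Without the cells with other-lineage transcripts 0 were left with enough UMIs in WT, so whether they stayed lower there was not tested. Sema6a, a membrane semaphorin, was at 24.1 CPM in WT and 28.4 in Sod1KO for GFP+, and 198 in WT and 194 in Sod1KO for GFP-, and at 15.9, 20.1, 171 and 172 CPM without those cells. The scavenger collectin gene Colec12 was at 80.1, 123, 524 and 383 CPM (log2 -2.71 and -1.64 for GFP+ over GFP-). It was named after its values were seen.

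Chemokine genes differed between sorts in both directions. Of 15 compared, 8 were higher and 2 lower in GFP+ in WT, and 6 were higher and 2 lower in Sod1KO, with medians of 1.39 and 0.64. Over all genes, 6.73% were higher and 4.4% lower in WT, and 6.31% higher and 5.32% lower in Sod1KO. Ccl4, an inflammatory chemokine, was at 1359 CPM in WT and 1754 in Sod1KO for GFP+, and 18.2 in WT and 427 in Sod1KO for GFP-. Cxcl2, which draws neutrophils, was at 3450.2, 3170.0, 388 and 993 CPM. Both were high in the GFP+ libraries and lowest in WT GFP-, and in GFP- Ccl4 was higher in Sod1KO by a log2 ratio of 4.55 (3.49 to 5.87) on 7 against 515 UMIs. Ccl24, an eotaxin, ran the other way at 311, 246, 597 and 579 CPM. Between genotypes, 0 of 16 chemokine genes were past 2-fold higher and 2 lower in GFP+, and 4 of 15 higher and 2 lower in GFP-. Here the shares over all genes were 6.12% higher and 2.1% lower in GFP+, and 6.52% and 2.63% in GFP-.

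Genes of osteopontin and TGF-beta signalling were detected in macrophages. The study follows these signals in Schwann cells, and reports osteopontin from phagocytic and myeloid cells as well after nerve crush. Cd44, the hyaluronan and osteopontin receptor, was at 492 CPM in WT and 424 in Sod1KO for GFP+, and 198 in WT and 221 in Sod1KO for GFP-. Of the integrin chains, Itgb1 was at 336 to 537 CPM, Itgav at 108, 177, 23.5 and 32.3 CPM, and Itgb5 at 49.2, 104, 26.1 and 58.0 CPM. Itgb5 was the gene of this list past 2-fold between genotypes in both sorts, higher in Sod1KO by log2 ratios of 1.08 (0.75 to 1.42) and 1.15 (0.19 to 2.28), and by 1.10 and 0.87 without the cells with other-lineage transcripts. Tgfb1 was at 303 to 459 CPM and its receptor gene Tgfbr2 at 253 to 396 CPM, with genotype ratios within 0.23 of 0 on the log2 scale for both. Itgb3 had too few UMIs to be compared.

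Of 16 growth factor genes for muscle and nerve compared between genotypes in GFP+, 2 were higher and 1 lower, and of 10 in GFP-, 2 were higher and 0 lower. Over all genes, 6.12% were higher and 2.1% lower in GFP+, and 6.52% higher and 2.63% lower in GFP-. Igf1, insulin-like growth factor 1, was at 387 CPM in WT and 362 in Sod1KO for GFP+, and 448 in WT and 350 in Sod1KO for GFP-. Pdgfb was at 22.6 and 53.9 CPM in GFP+, WT before Sod1KO (log2 1.25, 0.77 to 1.76), and at 31.3 and 31.5 CPM in GFP-. The ligands of Csf1r were at higher levels outside macrophages. Csf1 was at 28.7 to 43.3 CPM outside macrophages and at 5.21 to 9.83 CPM within them, and Il34 at 35.6 to 71.6 CPM outside and 2.46 to 26.1 CPM within.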

How the data were processed

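Single-cell RNA of muscle was measured in 4 libraries with a 3' droplet kit. The authors deposited raw UMI counts per gene and cell barcode, with no normalization, made with Cell Ranger 7.1.0 on mm10 per the submitters' processing notes, which also name Seurat 4.30. The study's methods name a later Cell Ranger and other builds, so no coordinates were taken from the files. Doublet and free RNA removal came after these counts.

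Barcodes with more than 200 genes and under 10% mitochondrial UMIs were kept (1665 to 5430 cells in the GFP- libraries and 4767 to 6291 in the GFP+ libraries). Library totals ran from 21959719 to 105954116 UMIs. Counts were summed over macrophages per library and scaled to CPM. Sums have exact Poisson intervals, shares Clopper-Pearson intervals, differences of shares Newcombe intervals and ratios exact conditional binomial intervals, all at 95% and for counting error only. A gene was compared, with 2-fold as the limit, where at least 10 UMIs were expected in each library, and 3 UMIs stood in for 0. Named genes were the 10 in each direction with the largest smaller-of-both log2 ratio of the same sign, outside the rule that selected the cells. Cells were clustered with scikit-learn 1.9.0, igraph 0.11.9 and leidenalg 0.10.2 (20 principal components, 20 neighbours, resolution 0.5). Doublet scores came from simulated pairs. The ratio step was run on simulated Poisson counts with known folds. These held no spread between cells, so the run does not check ratios that rest on few cells. Intervals were computed with scipy 1.17.1 in Python 3.11.15, with pandas 2.3.3 for tables.

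The cells, gene lists and motifs were chosen with earlier results of these data known. Alternatives covered the selection rule, minimum count, scaling, doublets, other-lineage transcripts, free RNA, weighting of cells and clusters.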

Additional observations from a re-analysis of the deposited data

Results flagged for a closer look

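Among barcodes that did not pass the cell filter, 20 met the marker part of the macrophage rule, 7 in WT and 6 in Sod1KO for GFP+, and 0 in WT and 7 in Sod1KO for GFP-. They drew attention as signal in data that the comparisons did not use, and they were left out of all values above.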

How the results depend on the processing

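No paired analysis was possible because each group was 1 library with no replicate numbers to pair. A fit of genotype and sort together was not run. The share of macrophages and the Retnla ratios kept their direction under the alternatives run. Of the values past 2-fold as reported, 10 changed sign under an alternative. Smaller ratios that changed sign, as those of Fabp5, Cd9 and Cd209d did, are not among them. Without cells with other-lineage transcripts the Sod1KO over WT ratio in GFP+ was -0.25 for Acta2 and -0.051 for Myh11, in the largest cluster it was -0.014 for both, and with doublet scores removed -0.18 for Myh11. As a mean of per-cell CPM it was -0.10 for Pde3a. For GFP+ over GFP- in the largest cluster, the WT ratio was -0.31 for Cx3cr1 and for the median of chemokine receptors, and the Sod1KO ratio -0.22 for Cebpb. Without its top cells Csmd1 was at -2.01 in WT. The cause was not tested.

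Counts of genes past 2-fold depended on the minimum expected count. At 5 and 30 UMIs in place of 10, they were 1496 and 288 (874 as reported) for Sod1KO over WT in GFP+, 1100 and 127 (512) in GFP-, and 136 and 26 (78) in both sorts. For GFP+ over GFP- they were 1195 and 173 (600) in WT, 1696 and 455 (1088) in Sod1KO, and 383 and 76 (224) in both genotypes. In the largest cluster, with fewer cells, the counts in the same order were 447, 311, 14, 311, 435 and 48. Without cells with other-lineage transcripts they were 552 for Sod1KO over WT in GFP+, 20 in both sorts and 724 for GFP+ over GFP- in Sod1KO, and with doublet scores removed 26 in both sorts. The share of higher genes among those past 2-fold in GFP+ went from 74.5% to 46.4% without cells with other-lineage transcripts, and in GFP- from 71.3% to 81.9% with totals that left out mitochondrial, ribosomal and Gm42418 UMIs, 58.0% without cells with other-lineage transcripts, 53.4% in the largest cluster and 53.1% with doublet scores removed. With doublet scores removed, cluster 1 held 83.8% of Sod1KO GFP- macrophages, and cluster 3 held 5.59% in Sod1KO GFP+ and 5.88% in Sod1KO GFP-. With all variable genes 93.1% of cells stayed in the same cluster and with doublet scores removed 97.1%, while resolution 1.0 gave 6 clusters. With 18 macrophages in WT GFP-, a gene near 0 there may have been missed.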

Other observations

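Between genotypes, of 18 immediate early and heat shock genes, which respond to dissociation, 0 were past 2-fold in either sort, with medians of 0.020 in GFP+ and -0.083 in GFP-. Toll-like receptor genes had 0 of 9 past 2-fold in GFP+ and 0 of 5 in GFP-, and MHC class I genes 0 of 7 in both. Of genes that respond to glucocorticoids, 0 of 10 were past 2-fold in GFP+, with a median of -0.38, and in GFP- 1 of 8 was higher and 1 lower, with a median of -0.30. Circadian genes had 2 of 11 higher and 0 lower in GFP+, and 1 of 6 higher and 1 lower in GFP-. For all lists of this paragraph, the shares over all genes were 6.12% higher and 2.1% lower in GFP+. In GFP- they were 6.52% and 2.63%. On the list of endoneurial and microglia type macrophage genes, 1 of 8 was higher and 0 lower in GFP+, with a median of 0.49, and 0 of 6 were past 2-fold in GFP-, with a median of -0.39. Genes past 2-fold in opposite directions in the GFP+ and GFP- sorts numbered 13 of 5575.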
